A study of Mus musculus with 12 samples.

Results

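The 8 subunits of the cytosolic chaperonin CCT (also called TRiC) in the gene table, together with phosducin and the phosducin-like gene Pdcl, were examined in mouse rods and in whole retina. The members were the genes whose symbols are Tcp1, Cct2, Cct3, Cct4, Cct5, Cct6a, Cct7, Cct8, Pdc and Pdcl. They were listed by name, with earlier results of these data known, and all 10 were found among the 56748 genes of the table. Polyribosome-bound RNA of rods (Rod-TRAP, called rods here) and total RNA of the retinal lysate it came from (called retina) were sequenced from control and Pkm2Rodko mice, with 3 libraries in each of the 4 groups. Both genotypes were homozygous for Ribo-Tag, an allele that puts a haemagglutinin tag on a ribosomal protein after Cre recombination, and both carried i75-Rod-Cre, a Cre driven by the rhodopsin promoter in rods. Control mice (RiboTag;Pkm2fl/+;i75-Rod-Cre, labelled Pkm2_Rodhet) therefore had 1 floxed Pkm2 allele, and Pkm2Rodko mice (RiboTag;Pkm2fl/fl;i75-Rod-Cre) had both floxed. The deposited description gives an age of 2 weeks, whereas the methods of the study name an age of 2 months for TRAP assays. All mice were perfused with cycloheximide and the tissue was flash-frozen. Nothing says how many animals a library holds, so p-values measure the spread between libraries.

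CCT is a double ring that takes up newly made proteins and lets them fold inside its cavity. Each ring holds one copy of every subunit, so that the subunits are needed in equal numbers. Actin and tubulin are its most abundant clients, delivered in part by prefoldin, a smaller holding chaperone. The beta subunits of G proteins also fold on CCT, and Pdcl (phosducin-like protein 1) releases them from it and lets them join a gamma subunit. Phosducin, encoded by Pdc, is an abundant photoreceptor protein of the same family that binds the beta-gamma dimer of transducin, the G protein that couples rhodopsin to its phosphodiesterase.

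The promoters of the members are shown because all members were higher in rods than in retina in the comparison given further on, and a shared sequence feature could be looked for. RefSeq windows (GRCm38.p6) of 300 bases, running from 250 bases before the start of transcription to 50 after it, were at hand for 9 of the 10 members, in 11 windows because Cct2 and Cct5 have more than 1 start; Cct4 was not matched. Each window was searched on both strands for a minimal heat shock element, GAANNTTC, which is its own reverse complement, and for the core site of the photoreceptor factor CRX, TAATCC. The 2 motifs do not overlap. The windows below, read 5′ to 3′ on the strand of the gene, are Pdc at chr1:150319167-150319466 (plus strand), Pdcl at chr2:37359283-37359582 (minus strand), the Cct2 start at chr10:117063326-117063625 (minus strand) and Cct6a at chr5:129787106-129787405 (plus strand). Pdc and Pdcl are the phosducins among the members, and the windows of Cct2 and Cct6a are the only 2 of the 11 that hold either motif, which is set in capitals.
Pdc: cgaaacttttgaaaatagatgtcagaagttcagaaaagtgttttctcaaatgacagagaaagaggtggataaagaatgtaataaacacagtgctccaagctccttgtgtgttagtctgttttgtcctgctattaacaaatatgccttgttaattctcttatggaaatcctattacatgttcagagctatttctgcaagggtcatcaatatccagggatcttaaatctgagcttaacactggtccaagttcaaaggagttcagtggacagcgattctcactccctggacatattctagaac
Pdcl: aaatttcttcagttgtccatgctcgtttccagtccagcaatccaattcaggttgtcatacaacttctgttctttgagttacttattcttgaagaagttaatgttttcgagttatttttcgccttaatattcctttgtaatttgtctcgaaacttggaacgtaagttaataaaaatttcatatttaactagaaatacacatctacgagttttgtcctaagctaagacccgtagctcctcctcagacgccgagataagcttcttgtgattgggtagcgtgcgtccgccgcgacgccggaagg
Cct2: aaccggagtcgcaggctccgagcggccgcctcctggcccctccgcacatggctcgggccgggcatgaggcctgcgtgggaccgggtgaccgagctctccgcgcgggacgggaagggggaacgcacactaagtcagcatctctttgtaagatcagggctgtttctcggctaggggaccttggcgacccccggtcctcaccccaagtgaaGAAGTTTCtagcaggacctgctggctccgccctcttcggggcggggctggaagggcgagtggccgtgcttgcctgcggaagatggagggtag
Cct6a: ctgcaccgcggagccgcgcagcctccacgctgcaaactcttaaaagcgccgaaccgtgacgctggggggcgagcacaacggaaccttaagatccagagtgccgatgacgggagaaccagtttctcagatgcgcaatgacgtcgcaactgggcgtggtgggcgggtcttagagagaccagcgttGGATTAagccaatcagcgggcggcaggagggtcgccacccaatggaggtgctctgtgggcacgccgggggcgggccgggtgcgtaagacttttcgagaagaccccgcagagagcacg

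The Cct2 window held 1 heat shock element at position -42 from the start, against 7.86% of all 32817 promoter windows with at least 1. The Cct6a window held 1 CRX core, on the opposite strand, at position -67, against 7.06% of all windows. The letters searched for are not in the windows of the other members, Pdc among them. Base composition separated the promoters of the CCT genes from those of the phosducins. The G and C content was 38% for Pdc and 40% for Pdcl, below the median of 52.7% over all windows, while 8 of the 9 CCT windows lay above it, up to 67.7% for Cct7, and the exception was 1 of the 2 Cct5 starts at 47.3%.

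Depth was between 13458890 and 22790074 reads per library, and every member had at least 1062 reads in each library and passed every filter on low values. Pkm, the targeted gene, had deposited values of 52141, 51049 and 54504 in the control rods and 23751, 22553 and 22246 in the Pkm2Rodko rods, lower in all 3 libraries labelled as knockout (log2 difference -1.20, SE 0.0838, limma adjusted p = 5.36e-05). The rod marker list was higher in rods than in retina in 12 of 12 genes, with a median log2 difference of 1.94. The markers of other retinal cells stayed measurable in the rod fraction, where the Müller glia genes had summed levels of 10270 to 12830 on the common scale in control rods and 74727 to 84567 in control retina.

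Pdc stood apart from all other members in level. For a comparison between genes, reads were divided by the length of the longest coding transcript and expressed per 1000000 TMM-scaled reads (trimmed mean of M values, which places all 12 libraries on one scale). On that scale Pdc was at 5819, 6146 and 6478 in the control rods, at 6814, 6417 and 6529 in the Pkm2Rodko rods, at 1568, 1682 and 1388 in the control retina and at 1563, 1347 and 1565 in the Pkm2Rodko retina. The rod libraries of both genotypes were all above the retina libraries. In the same rod libraries Gnb1, the beta subunit of rod transducin and the partner of phosducin, was at 5703, 5494 and 5397 in controls. The per-length ratio of Pdc to Gnb1 within a library, which no scaling between libraries can change, was 1.11 ± 0.0900 (SD, n = 3) in control rods, 1.15 ± 0.0418 in Pkm2Rodko rods, 1.03 ± 0.0285 in control retina and 0.948 ± 0.0685 in Pkm2Rodko retina. This ratio rests on the length taken for each gene: with all annotated exons as the length it averaged 0.562, 0.582, 0.520 and 0.479 in the same groups.

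Pdcl, its chaperone relative, was the lowest member with the length of the longest coding transcript, whereas with all exons Tcp1 was lowest in the rods and Cct3 in the retina of both genotypes. On the former scale Pdcl was at 41.6, 43.4 and 39.97 in the control rods and at 40.4, 46.8 and 45.3 in the Pkm2Rodko rods, and at 21.4, 20.4 and 17.5 in the control retina and 17.1, 19.1 and 20.1 in the Pkm2Rodko retina. No rod library overlapped a retina library. The ratio of Pdc to Pdcl within a library was 148 ± 12.3 in control rods and 150 ± 16.6 in Pkm2Rodko rods, but 78.3 ± 4.65 in control retina and 79.9 ± 10.4 in Pkm2Rodko retina (67.5, 68.4, 35.8 and 36.5 with all exons). The lowest rod ratio, 137, lay above the highest retina ratio, 91.2, so the 2 phosducins differed unequally between the fractions.

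**Figure D1:**
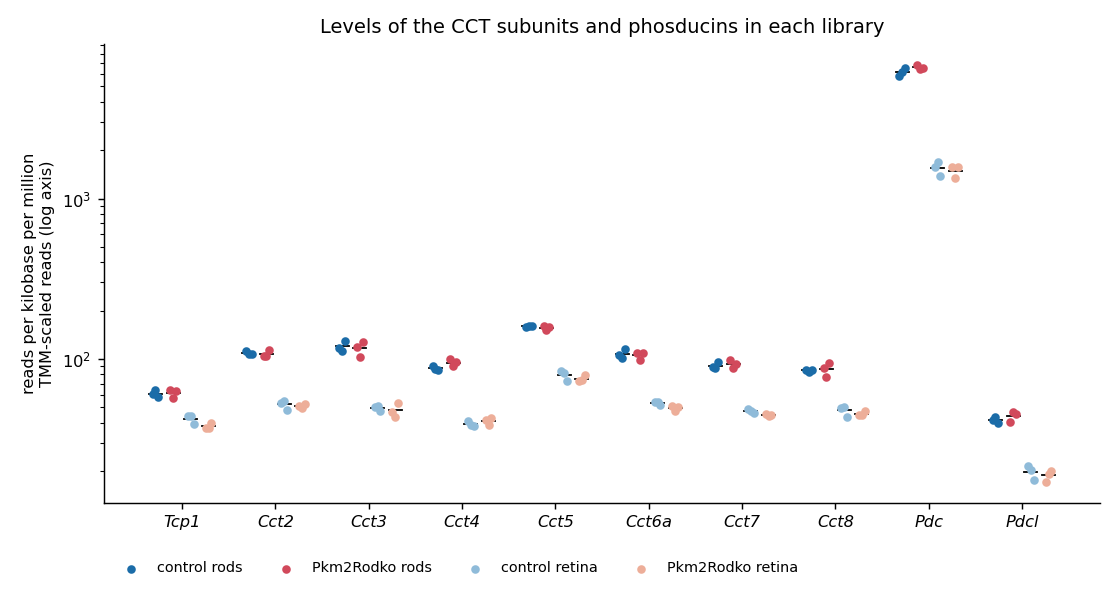
Level of each member in every library, as reads per kilobase of the longest coding transcript per 1000000 TMM-scaled reads, on a log axis. Points are the 3 libraries of a group and black bars their mean. Pdc lies far above the other members in all groups, Cct5 is the highest CCT subunit and, with this length, Pdcl the lowest member.

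Although CCT is built from equal numbers of its subunits, their mRNA levels were not equal. In control rods Cct5 was highest at 160 ± 0.889 (n = 3), followed by Cct3 at 120 ± 8.98, Cct2 at 109 ± 2.43, Cct6a at 108 ± 7.55, Cct7 at 91.0 ± 4.25, Cct4 at 87.3 ± 2.39, Cct8 at 84.8 ± 1.38 and Tcp1 at 60.8 ± 3.395. Of these neighbours, Cct2 and Cct6a overlapped between libraries, as did Cct7 and Cct4, and the others did not. In control retina Cct5 was again highest at 79.7 ± 6.24, but the subunits below it lay closer together. Cct6a at 53.1 ± 1.53, Cct2 at 52.2 ± 3.402, Cct3 at 49.4 ± 1.77, Cct8 at 47.8 ± 3.57 and Cct7 at 47.2 ± 1.38 overlapped from each to the next, Cct7 did not overlap Tcp1, and Tcp1 at 42.5 ± 2.94 overlapped Cct4 at 39.3 ± 1.44. The highest subunit exceeded the lowest 2.63-fold in control rods and 2.54-fold in Pkm2Rodko rods, against 2.03-fold and 1.98-fold in the retina of the 2 genotypes. Length decides part of this order. With all annotated exons as the length of a gene, Cct3 and Cct7, whose exons cover 6370 and 6778 bases against 1977 and 2441 for the longest coding transcript, ranked near the lower end, and the highest to lowest ratio became 3.62 in control rods and 3.48 in control retina. Cct5 was the highest subunit with either length.

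The comparison of rods with retina sets polyribosome-bound RNA of rods against total RNA of the whole retina. Cell type and binding to ribosomes differ together between these fractions and cannot be told apart. Here reads scaled by TMM to a library size of 17455075, and called normalised reads from here on, were compared by limma on log2(normalised reads + 1). All 10 members were called higher in rods in control mice (9 under total-read scaling, where Tcp1 was not called), where 23.6% of the 25458 genes tested were, and 59.3% were called in either direction. All 10 were also called higher in Pkm2Rodko mice, where 24% of all genes were called higher and 59.3% in either direction. Many of the genes tested have few reads, unlike the members: among the 12918 genes with at least 10 reads in every library, 45.8% were called higher in control and 46.9% in Pkm2Rodko mice. On the TMM scale no member overlapped between the fractions in either genotype. This was so for 62.1% of all genes in control mice and 63.3% in Pkm2Rodko mice. Among the genes with at least 10 reads in every library it was so for 76% and 77.1%. As a percentage of the counted reads of a library, Tcp1 overlapped between the fractions in both genotypes. The group means of the control and the Pkm2Rodko comparisons come from different libraries. Both comparisons share the scaling and the estimate of the spread over all 12 libraries, so they are not fully separate.

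The largest difference among the members was that of Pdc. It had 126568, 133664 and 140880 normalised reads in the control rods and 34101, 36582 and 30198 in the control retina, a 3.98-fold difference (log2 1.99, SE 0.0961, limma adjusted p = 1.67e-10). In the Pkm2Rodko mice the rods were at 148202, 139558 and 141994 and the retina at 33993, 29299 and 34044 (log2 2.15, SE 0.0961, adjusted p = 5.67e-11). The difference of Pdc was close to the median of the rod markers, 1.94. Its partner Gnb1 had a log2 difference of 1.89 and Gngt1, the rod gamma subunit, 1.73 in control mice. Pdcl, at 2219, 2314 and 2132 in the control rods and 1141, 1087 and 935.8 in the control retina, was 2.11-fold higher in rods (log2 1.08, SE 0.0914, limma adjusted p = 6.05e-08).

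Among the CCT subunits, Cct3 had the largest difference and Tcp1 the smallest. Cct3, the gamma subunit, was at 4059, 3855 and 4464 normalised reads in the control rods and at 1724, 1755 and 1638 in the control retina (log2 1.27, SE 0.0925, limma adjusted p = 1.08e-08). Tcp1, the alpha subunit, was at 2572, 2753 and 2466 in the control rods and at 1894, 1877 and 1668 in the control retina (log2 0.52, SE 0.0774, adjusted p = 2.94e-05). On this scale the fractions did not overlap for either gene, but the gap was narrow for Tcp1. As a percentage of all counted reads Tcp1 did overlap, at 0.0121, 0.0134 and 0.0115 in the control rods and 0.0131, 0.0129 and 0.0117 in the control retina. Cct4, the delta subunit, was at 3907, 3731 and 3723 in the control rods against 1775, 1680 and 1658 in the control retina (log2 1.15). Cct2, the beta subunit, was at 3815, 3667 and 3676 against 1827, 1873 and 1652 (log2 1.06). Cct8, the theta subunit, was at 3565, 3477 and 3585 against 2075, 2094 and 1827 (log2 0.83). The remaining subunits were nearly 2-fold higher in rods, with log2 differences of 1.02 for Cct6a, 1.01 for Cct5 and 0.95 for Cct7. The median over the 8 subunits was 1.01 in control and 1.07 in Pkm2Rodko mice, beside a median of -0.36 and -0.31 over all genes tested. The median turns to 0.24 and 0.26 over the genes with at least 10 reads in every library, which leaves Tcp1 at 0.52 the closest of the members to it in control mice.

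These sizes rest on the choice of scaling between the fractions. Scaling to total reads moved the median of all genes in control mice from -0.36 to -0.76 and the share of calls that were higher in rods from 39.8% to 14.7%. With that scaling 9 members were still called higher in rods, Pdc with a log2 difference of 1.44, Pdcl with 0.53 and Cct3 with 0.72. Tcp1 then had a log2 difference of -0.03 (limma adjusted p = 0.753) and, in Pkm2Rodko mice, of 0.11 (adjusted p = 0.262). Relative to the median of all genes tested, Tcp1 was 0.88 higher on the log2 scale under TMM and 0.73 under total reads, and Pdc 2.36 and 2.20. That median includes many genes with few reads. Over the genes with at least 10 reads in every library it was 0.24 under TMM in control mice, where Tcp1 was at 0.52.

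**Figure D2:**
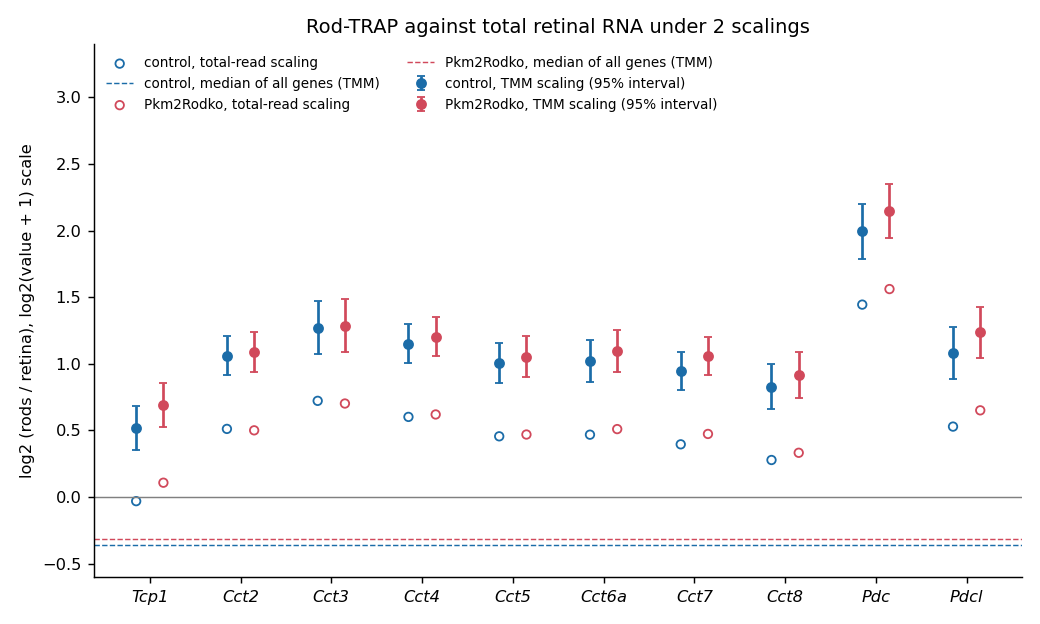
Log2 difference between rods and retina for each member in control (blue) and Pkm2Rodko (red) mice. Filled points are TMM-scaled estimates with 95% intervals from limma, open circles the estimates with libraries scaled to total reads, and dashed lines the medians of all genes under TMM. All filled points lie above 0, with Pdc highest and Tcp1 lowest, and the open circle of Tcp1 in control mice falls to -0.03.

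A measure that no scaling enters is the share of each subunit in the summed reads of the 8 CCT genes of the same library. This measure was chosen after the differences above had been seen. Rod and retina libraries of the same number and genotype deviated together and were treated as 6 pairs. The share of Tcp1 was between 7.67% and 8.95% in the 6 rod libraries and between 10.5% and 11.5% in the 6 retina libraries, and fell by 2.78 percentage points from retina to rods on average, with 0 of 6 pairs higher in rods. Cct8 also had a lower share in rods in all pairs, 11.3% against 12.6%. Cct3 had a higher share in 6 of 6 pairs, 12.9% in rods against 10.8% in retina, and so did Cct4, 12.5% against 11.3%. The shares of a library add up to the whole, so a fall of some subunits forces a rise of others. The 4 differences are therefore not separate results. Each of these 4 shares reached an exact paired permutation p of 0.0312 (two-sided), the smallest that 6 pairs can give, and an adjusted p over the 8 subunits of 0.0625, so none passed 0.05. Without the pairing, 6 libraries against 6, the exact permutation test gave adjusted p-values of 0.00577 for Tcp1, Cct3 and Cct8 and 0.0173 for Cct4. That test takes paired libraries as independent, which they are not, so it does not replace the paired result. The shares of Cct2, Cct5, Cct6a and Cct7 differed by less than 0.5 points on average, and the pairs went both ways. The 8 genes together made up 0.149% ± 0.00158 of the counted reads in control rods and 0.110% ± 0.00452 in control retina.

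**Figure D3:**
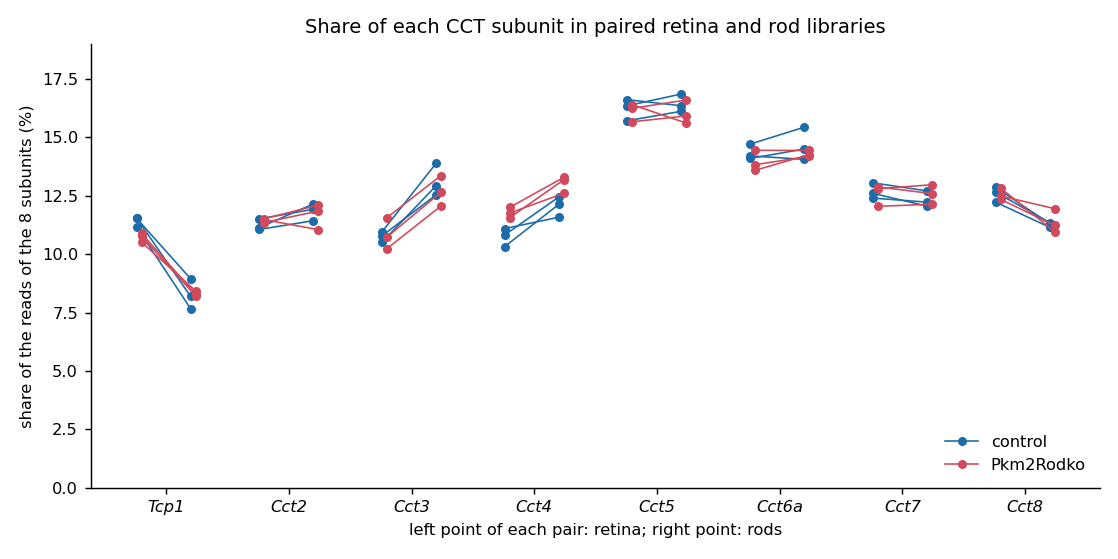
Share of each CCT subunit in the reads of the 8 subunits of a library, in percent. Each line joins the retina library (left point) and the rod library (right point) of the same number and genotype, blue for control and red for Pkm2Rodko. All 6 lines fall for Tcp1 and Cct8 and rise for Cct3 and Cct4.

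Overlap with neighbouring genes bears on Tcp1, Cct6a, Cct7 and Cct8, since it is not stated whether counting used strand. In the GENCODE vM21 annotation, exons of Tcp1 share 571 bases with Acat3 and 141 with Mrpl18 on the other strand, and a stretch of 445 bases matches Acat2 in reverse orientation at 98.7% identity. Reads counted on Acat2 and Acat3 came to 8.70% of the Tcp1 reads in rods and 17.0% in retina, and those on Mrpl18 to 23.6% and 20.4%, so that these neighbours differed in opposite directions relative to Tcp1. Cct8 shares 192 exonic bases with Usp16, which had 16.1% of the Cct8 reads in rods and 24.4% in retina. Cct6a shares 452 bases with Psph, at 8.33% and 9.86% of its reads, and Cct7 shares 214 with Pradc1, at 7.59% and 8.06%. The part of the neighbours in the subunit shares was not tested. Among transcripts of other genes, Cct3 had 1 processed pseudogene and Cct7 had 1 with at least 90% identity over 300 bases, and they held at most 0.0322% of the reads of the member.

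The wider folding pathway was described by lists of named genes. All values in this and the next paragraph are log2 differences between control rods and control retina. Of the 6 prefoldin subunits, 5 were called higher in rods and 1 was not called, with Vbp1 at 1.01, Pfdn6 at 0.82 and Pfdn4 at 0.71, and a median of 0.62. Of 3 prefoldin-like genes, Uri1 at 0.52 and Pdrg1 at 0.50 were called higher (-0.03 and -0.05 under total-read scaling), and Uxt was at 0.23 (limma adjusted p = 0.311). Of 3 other phosducin family genes, Pdcl3 at 0.50 and Txndc9 at 0.44 were called higher (-0.05 and -0.11 under total-read scaling), and Pdcl2, which is nearly silent in these libraries, was at -0.46 (adjusted p = 0.508). Of 5 tissue-restricted or chaperonin-like genes, Mkks at 0.57 and Bbs10 at 0.34 were called higher (0.02 and -0.21 under total-read scaling) and Bbs12 at -0.36 lower. The other genes of this list, Cct6b and Cct8l1, were not called, and the lower of them was at -1.16. In control rods 1 gene of this list had no reads, and the lowest value of the list was -3.59 with edgeR. The size of the lowest value thus depends on the fit. The calls of Bbs10 and Bbs12 were each lost without any of 3 single libraries. Mkks, Bbs10 and Bbs12 encode the chaperonin-like proteins that work with CCT in assembling the BBSome, a coat complex of the cilium. Under total-read scaling no prefoldin-like, other phosducin, tissue-restricted or chaperonin-like gene was called higher. Of the prefoldin genes 1 was called higher and 1 lower, and the median of that list was 0.07.

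Clients of CCT and their partners differed in both directions. Of 5 G protein beta genes, Gnb1 at 1.89 and Gnb5, the partner of the rod regulator Rgs9, at 1.54 were called higher in rods. Gnb2 at -1.40 and Gnb4 at -0.93 were called lower, and Gnb3, the beta subunit of cone transducin, was at 0.13 (limma adjusted p = 0.725), but was called at 0.61 without control rods 2 (adjusted p = 0.00261) and not at -0.16 without control rods 1. All 4 genes of rod transducin and the RGS9 complex were called higher, Gnat1 at 2.10, Gngt1 at 1.73, Rgs9 at 1.28 and Rgs9bp at 0.71, although Rgs9bp at 0.16 was not called under total-read scaling. Both genes of cone transducin were called lower, Gnat2 at -0.70 and Gngt2 at -0.75. Of 14 actin and tubulin genes, 6 were called higher and 5 lower (1 and 8 under total-read scaling), from Tubb5 at 1.0015 to Tubb4a at -3.03 and Tubb2a at -3.28. Of 6 tubulin folding cofactors, which act on tubulin after CCT, Tbcc at 1.51 and Tbcb at 0.30 were called higher and Arl2 at -0.58 lower (1 higher and 4 lower under total-read scaling), with Tbcb losing its call without any of 4 single libraries. Under total-read scaling Gnb1, Gnb5, Gnat1, Gngt1, Rgs9 and Tbcc kept a positive value, as did Tubb5, while Tbcb was at -0.25. As for the members, cell type and binding to ribosomes cannot be told apart in these differences.

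**Figure D4:**
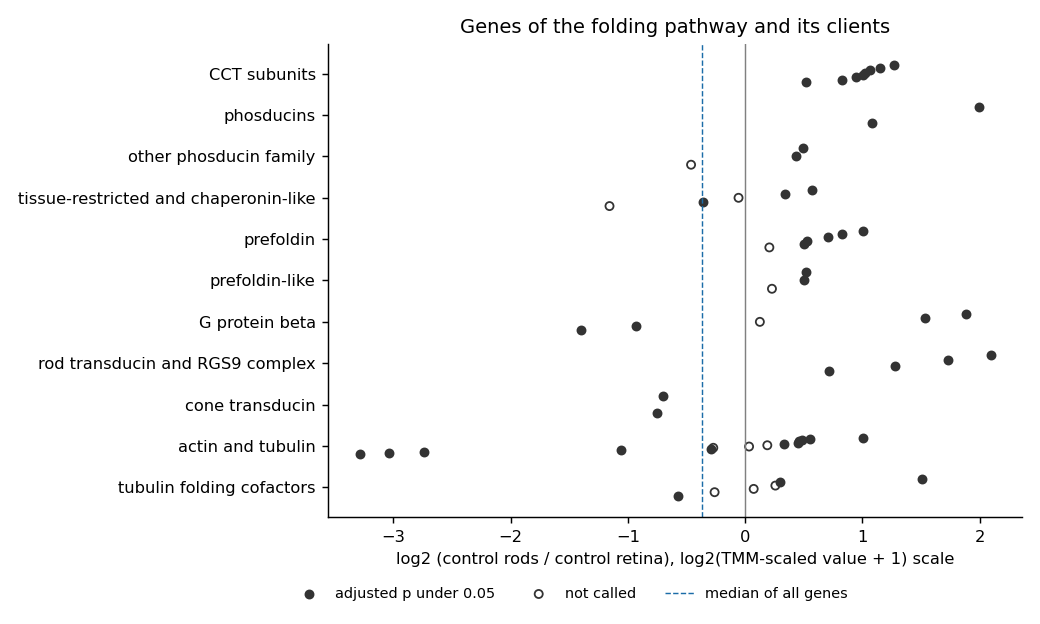
Log2 difference between control rods and control retina for every tested gene of the members and the pathway lists (TMM scaling). Filled points passed an adjusted p of 0.05, open points did not, and the dashed line is the median of all genes tested. The CCT subunits, phosducins and rod transducin genes all lie above 0 (Tcp1 falls to -0.03 under total-read scaling), while the tubulins run from -3.28 to 1.0015.

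The genotype comparison sets mice with both Pkm2 alleles floxed against mice with 1 floxed allele, all with rod Cre. It does not compare the loss of Pkm2 with intact rods. In rods 0 of 10 members were called, where 0.0194% of the 20658 genes tested were (4 genes by limma on log2(deposited value + 1)), and 0 of 10 had an unadjusted p under 0.05 or were called by edgeR or DESeq2. In retina 0 of 10 were called, where 0.00391% of the 25590 genes tested were (Pkm alone), again with 0 at an unadjusted p under 0.05 and 0 by edgeR or DESeq2. In rods the log2 differences between Pkm2Rodko and control ran from -0.03 for Cct3 to 0.13 for Cct4, and the 95% intervals of all members lay between -0.24 and 0.32. In retina they ran from -0.14 for Tcp1 to 0.08 for Cct4, with intervals between -0.31 and 0.24. Changes of a CCT subunit or a phosducin beyond -19.2% or 24.8% in either fraction thus lie outside the intervals.

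Of the members, Cct4 and Pdc did not overlap between the genotypes in rods, 2 of 10, beside 9.89% of all genes. Cct4 had deposited values of 3163, 3026 and 2985 in the control rods and 3476, 3180 and 3367 in the Pkm2Rodko rods (log2 0.13, 95% interval -0.05 to 0.30, limma adjusted p = 0.932). All 3 Pkm2Rodko libraries were higher, by a margin smaller than the spread within either group. Pdc was at 102460, 108408 and 112942 in the control rods and at 119421, 113912 and 115636 in the Pkm2Rodko rods (log2 0.11, interval -0.10 to 0.32, adjusted p = 0.932). In retina Cct6a and Cct7 did not overlap, again 2 of 10 beside 9.29% of all genes, and both were lower in Pkm2Rodko mice. Cct6a was at 2802, 2833 and 2690 in the control retina and at 2669, 2487 and 2676 in the Pkm2Rodko retina (log2 -0.09, interval -0.24 to 0.06, adjusted p = 0.947). Cct7 was at 2505, 2473 and 2386 against 2365, 2316 and 2373 (log2 -0.06, interval -0.21 to 0.09, adjusted p = 0.948). Pdcl, at 1797, 1876 and 1709 in the control rods and 1737, 2039 and 1969 in the Pkm2Rodko rods, overlapped between the genotypes (log2 0.09, interval -0.11 to 0.29).

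The share of Cct4 in the CCT reads was 12.1% ± 0.437 in control rods and 13.02% ± 0.367 in Pkm2Rodko rods, and 10.8% ± 0.390 in control retina and 11.8% ± 0.220 in Pkm2Rodko retina. In both fractions, whose libraries are paired and so are not separate observations, all 3 Pkm2Rodko libraries were above all 3 control libraries, with an exact permutation p of 0.1, the smallest that 3 libraries against 3 can give, and an adjusted p of 0.533 over the 16 comparisons of 8 subunits in 2 fractions. Tcp1 had a share of 11.4% ± 0.216 in control retina and 10.7% ± 0.194 in Pkm2Rodko retina at the same p, while in rods it was 8.27% and 8.32%. These 3 of the 16 comparisons were those in which the genotypes did not overlap.

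The genotype difference in rods minus that in retina was called for 0% of the 25458 genes tested by limma, with 1124 genes at an unadjusted p under 0.05, 0 called by edgeR and 1 by DESeq2. For the members it lay between 0.01 and 0.17 on the log2 scale, with 95% intervals between -0.26 and 0.44. The value was positive for 10 of 10 members, none of them called. It was highest for Tcp1 at 0.17, Pdcl at 0.16 and Pdc at 0.15. Under total-read scaling it was -0.01 for Cct2 and -0.02 for Cct3. The members were measured in the same libraries, so their signs are not separate observations. Beside them, 6 of 6 prefoldin genes and 0 of 5 G protein beta genes were positive, and the median of all genes tested was 0.005. No gene of the marker lists was called between the genotypes in rods, but most lists of other cells had lower values in Pkm2Rodko rods. The median log2 difference was below 0 for 8 of 9 such lists, from -0.09 for microglia to -0.49 for amacrine cells, and was 0.10 for horizontal cells. All 10 Müller glia markers and all 10 ganglion cell markers had lower values in Pkm2Rodko than in control rods, with medians of -0.35 and -0.40, beside 0.04 for the 12 rod markers. The summed Müller list was at 10270 to 12830 normalised reads in control rods and at 8660 to 9886 in Pkm2Rodko rods. In retina 9 of 10 members were below 0 as well, as were all 10 Müller and all 10 bipolar markers, with medians of -0.16 and -0.18, none called. Of the rod markers 11 of 12 were above 0 in retina, with a median of 0.09. The median was -0.25 for microglia, -0.12 for cones, -0.10 for endothelial cells and -0.05 for amacrine cells. It was -0.03 for ganglion cells, -0.01 for horizontal cells and 0.19 for pigment epithelium. Fewer cells of a type and less RNA per cell cannot be told apart in such samples. The part of these markers in the member values was not tested.

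**Figure D5:**
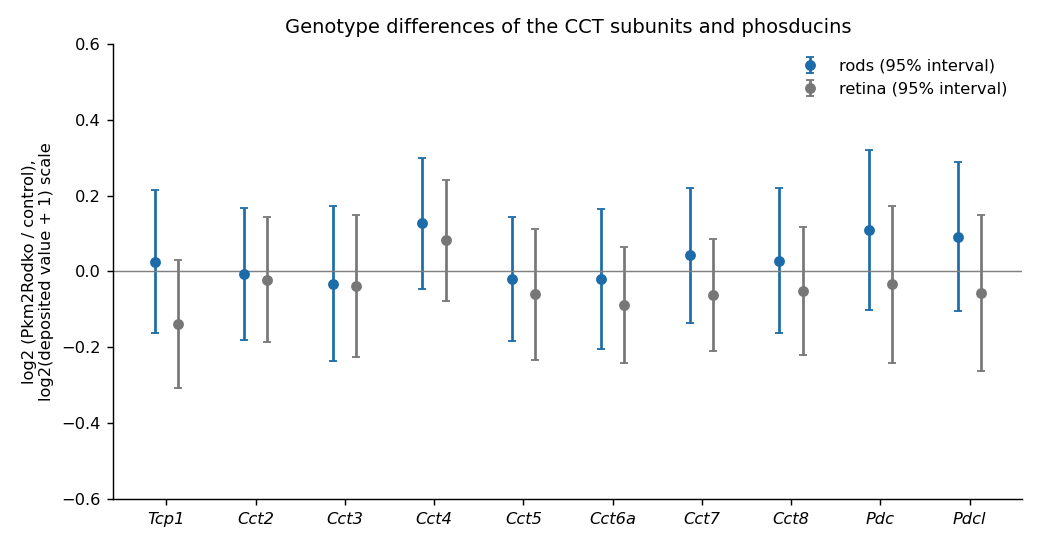
Log2 difference between Pkm2Rodko and control mice for each member in rods (blue) and retina (grey), on the scale of log2(deposited value + 1), with 95% intervals from limma. Every interval crosses 0, and all lie between -0.31 and 0.32.

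Across the 12 libraries, genes with at least 100 reads on average were ranked by Pearson correlation of log2 normalised reads with Pdc and with the mean of the CCT subunits, as a description over libraries that share 2 fractions and 2 genotypes. The profile most like that of Pdc was Eif4a1, a helicase of translation initiation (r = 0.999), followed by Lsm14a, Htatsf1, Cplx4, a complexin of photoreceptor synapses, and Prpsap2 (r = 0.998 each). Eif4a1 was also first for the CCT mean (r = 0.999), followed by Atp5a1, Rbbp4, Pex2 and Lgmn. All of these genes had higher normalised reads in rods than in retina, which follows from ranking by profiles that are themselves higher in rods. The correlation does not measure the size of a difference. Eif4a1, at 6314 in rods and 2928 in retina, differed less between the fractions than Pdc.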

How the data were processed

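Rods and retina were compared in 12 libraries. In the deposited table each value is a signal, the reads on a gene over a median-of-ratios size factor that the authors took within each fraction, rounded to 1 decimal, so the fractions are not on one scale as deposited. Per the labels, the submitters' processing notes name CASAVA 1.8.2, HISAT2, DESeq2, edgeR and GRCm39; the counting tool, annotation and strand setting are not given in the sources used here. Whole reads were recovered from the step of 1 read in each library, with 99.9952% to 100% of positive values whole within 0.051.

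Genotypes were compared within a fraction with limma 3.58.1 (trend) on log2(deposited value + 1), for genes with a mean of at least 1 in 1 genotype. Fractions and the genotype difference between them were compared with limma on log2(reads scaled by TMM over 12 libraries + 1), with 4 group means. Benjamini-Hochberg adjustment covered all genes tested, with a threshold of 0.05. Per-length levels used the longest transcript with a consensus coding sequence of GENCODE vM21 (GRCm38), matched by gene identifier; for Cct6a, which has none there, the longest basic transcript served. The plan named gene length without saying which, and this choice was made after the data were at hand. Copies were searched with blastn 2.17.0. The recovered reads also entered alternative fits with DESeq2 1.42.0 and with edgeR 4.0.16. The methods were tested on simulated data.

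The members and gene lists were chosen with earlier results of these data known. Named besides the members were Pkm, Gnb1, Gngt1, Gnb5, Rgs9, up to 3 further genes of each list with the smallest adjusted p between control rods and control retina, list genes called in a genotype comparison (there were none) and the 5 genes most like Pdc and the CCT mean. Rod and retina libraries with the same number deviated together over 11264 genes (r between 0.289 and 0.598 in 6 pairs), so these numbers were taken to pair the fractions; between genotypes they did not. Protein sequences were not analysed here.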

Additional observations from a re-analysis of the deposited data

How the results depend on the processing

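No member was called between genotypes under any alternative, and the call of higher in rods was kept under every alternative and left-out library for the members other than Tcp1. The planned comparison of protein sequences was not run. Tcp1 lost the call with total reads and with the deposited values, in Pkm2Rodko mice at 0.11 and 0.09.

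Scaling between the fractions turned the sign of several values. In control mice the log2 difference between rods and retina was, with total reads, -0.031 for Tcp1, -0.052 for Pdcl3, -0.11 for Txndc9, -0.21 for Bbs10, -0.030 for Uri1, -0.051 for Pdrg1, -0.31 for Uxt, -0.42 for Gnb3, -0.25 for Tbcb. With the deposited values it was -0.077 for Tcp1, -0.097 for Pdcl3, -0.16 for Txndc9, -0.25 for Bbs10, -0.075 for Uri1, -0.096 for Pdrg1, -0.36 for Uxt, -0.47 for Gnb3, -0.29 for Tbcb, -0.021 for Mkks. Cct2 and Cct3 had genotype differences between the fractions of -0.011 and -0.020 with total reads, and Cct3 of -0.00655 with edgeR and -7.34e-05 with DESeq2. Cct2 was at 0.0027 between genotypes in rods with edgeR. A minimum of 10 reads in every library, which tests fewer genes, left 9526 genes called between the fractions in control mice, 9651 in Pkm2Rodko mice and 0 between genotypes in retina. One fit of all 12 libraries called 17 genes between genotypes in rods, and DESeq2 called 1 gene for the difference between the fractions. Why the other counts moved was not tested.

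With the replicate block 8 genes were called between genotypes in rods (4 higher, 4 lower) and 0 in retina, where Pkm had an adjusted p of 0.157. The numbers do not pair the genotypes (r between -0.291 and -0.00585 in rods and -0.307 and 0.0567 in retina). Between the fractions, which the numbers do pair, the block changed no call of a member.

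Leaving out 1 library gave 2 to 6 genes called between genotypes in rods (2 without control rods 1, control rods 2 or Pkm2Rodko rods 3) and 0 to 4 in retina (4 without control retina 3, 2 without control retina 2, and 0 without control retina 1 or any Pkm2Rodko library). Bbs10 lost its call without control rods 2, control retina 1 or control retina 3, Bbs12 without control rods 3, control retina 1 or control retina 2, and Tbcb without control rods 1, control rods 3, control retina 2 or control retina 3. No member that changed sign when a library was left out was called. The ranges in rods were Tcp1 -0.016 to 0.072, Cct2 -0.047 to 0.018, Cct3 -0.099 to 0.048, Cct6a -0.063 to 0.029 and Cct8 -0.036 to 0.099. In retina they were Cct2 -0.074 to 0.017, Cct3 -0.12 to 0.030, Pdc -0.11 to 0.040 and Pdcl -0.14 to 0.012. For the difference between the fractions they were Cct2 -0.013 to 0.078, Cct3 -0.052 to 0.11 and Cct4 -2.39e-04 to 0.10. Between rods and retina of control mice they were Pdcl2 -0.69 to 0 and Gnb3 -0.16 to 0.61, where Gnb3 was called without control rods 2. With all exons as the length, the highest to lowest CCT level was 3.62 in control rods, 3.50 in Pkm2Rodko rods, 3.48 in control retina and 3.41 in Pkm2Rodko retina. The all-exon length and the unpaired test of shares were chosen after seeing the data.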
